A study of Oryza sativa with 12 samples.

Results

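Chlorophyll synthesis in rice leaves was followed here through the transcripts of 10 enzyme genes: HEMA1, CHLH, CHLD, CHLI, CRD1, DVR, PORA, PORB, YGL1 and CAO1. The genes form a named set of locus identifiers, a rule that uses no measured value, although the set was proposed with earlier results of these data known. All 10 were present among the 38978 annotated genes counted. In plants chlorophyll is made in the plastid from glutamate, through 5-aminolevulinic acid and a chain of porphyrins to protoporphyrin IX. There the path divides: ferrochelatase puts in iron on the way to haem, and magnesium chelatase puts in magnesium on the way to chlorophyll. The chlorophyll branch then closes the last ring, reduces protochlorophyllide in the light, adds the phytol tail and turns part of chlorophyll a into chlorophyll b.

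The samples were vegetative leaves of indica rice (Oryza sativa) of the aromatic variety Pusa Basmati-1, collected 2.5 months after the plants had been moved to a greenhouse. The study addressed the aquaporins OsPIP2-1 and OsPIP2-7, water channels of the plasma membrane. Each had a wild type (WT) of its own, an overexpression line (OE) and a CRISPR-Cas9 knockout (KO) without T-DNA, so that there were 6 groups of 2 libraries, 12 in all. The PIP2-1 OE plants carried 3xMyc-OsPIP2-1 and the PIP2-7 OE plants 3xFLAG-OsPIP2-7, both under the maize ubiquitin promoter, which is active in most tissues and not in leaves alone.

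Library totals ran from 24636211 to 40666127 counts. Whether replicate libraries stem from separate plants, and how many transgenic lines were used, is not in the labels, so p-values cover the spread between replicate libraries alone, and that spread may be technical. The labels also name no day or hour of harvest and no batch, so the experiment cannot be told apart from any such difference. OsPIP2-1 stood at 1901 ± 36.6 CPM (counts scaled to library size; mean ± SD, n = 2 in this and later such values) in its OE line and at 132 ± 0.687 CPM in the WT. In its KO it stood at 138 ± 4.55 CPM, not called different from WT, so the RNA level does not check that label. OsPIP2-7 stood at 1708 ± 73.6 CPM in its OE, 158 ± 3.26 in its KO and 687 ± 6.04 in the WT. The leaf label was checked with the Rubisco small subunit genes RBCS2, RBCS3 and RBCS4 and the photosystem II gene PSBO, which summed to between 5907 and 34676 CPM per library. In contrast, 4 floral and meristem markers summed to at most 8.98 CPM and 3 secondary wall markers to at most 3.68 CPM in any library. The groups were not alike in this check: the floral gene OsMADS1 ran from 0.932 CPM in the WT for PIP2-7 to 8.22 in PIP2-1 OE. The meristem gene OSH1 had no count in the WT for PIP2-1.

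Against their own WT the 10 transcripts changed in the same direction within an experiment and in opposite directions between the experiments, though by very different amounts. In the PIP2-1 experiment both lines had more of them than their WT: with edgeR's quasi-likelihood test and an adjusted p under 0.05, 10 of 10 were higher in OE, where 23.2% of 23487 genes tested were higher, and 10 of 10 in KO, where 30.5% were. In the PIP2-7 experiment both lines had less: 10 of 10 were lower in OE, against 33.7% of 23627 genes, and 10 of 10 in KO, against 31.3%. The median log2 change of the members was 1.12 in PIP2-1 OE, 1.94 in PIP2-1 KO, -1.79 in PIP2-7 OE and -1.76 in PIP2-7 KO, while the median over all genes tested lay between -0.010 and 0.0028. All 10 passed the filter on low counts in each comparison. Lines of an experiment share their WT libraries, so their changes are not independent of each other.

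Summed over the 10 genes, the level was 1464 to 1471 CPM in the WT for PIP2-1, 3136 to 3162 in its OE and 5654 to 5684 in its KO. It was 4471 to 4522 CPM in the WT for PIP2-7, 1205 to 1213 in its OE and 1202 to 1203 in its KO. As unscaled counts, the members made up 0.157%, 0.317%, 0.541%, 0.404%, 0.125% and 0.126% of all counts, in the same order. The CPM ranges did not overlap between groups, and those of PIP2-7 OE and KO nearly touched. Each range, here and for single genes below, rests on 2 libraries. How often other genes separate in this way was not worked out. The leaf markers moved the same way as the members. Their sum was 5992 to 6134 CPM in the WT for PIP2-1, 14137 to 14299 in OE and 31866 to 34676 in KO, and 15129 to 15484, 6932 to 6994 and 5906 to 6046 in the WT, OE and KO of the PIP2-7 experiment. All 4 leaf markers were called higher in both PIP2-1 lines and lower in both PIP2-7 lines, beside the shares of all genes given above. The part of these markers in the result was not tested. In such bulk leaf RNA, fewer cells of a type and less RNA per cell cannot be told apart.

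**Figure D1:**
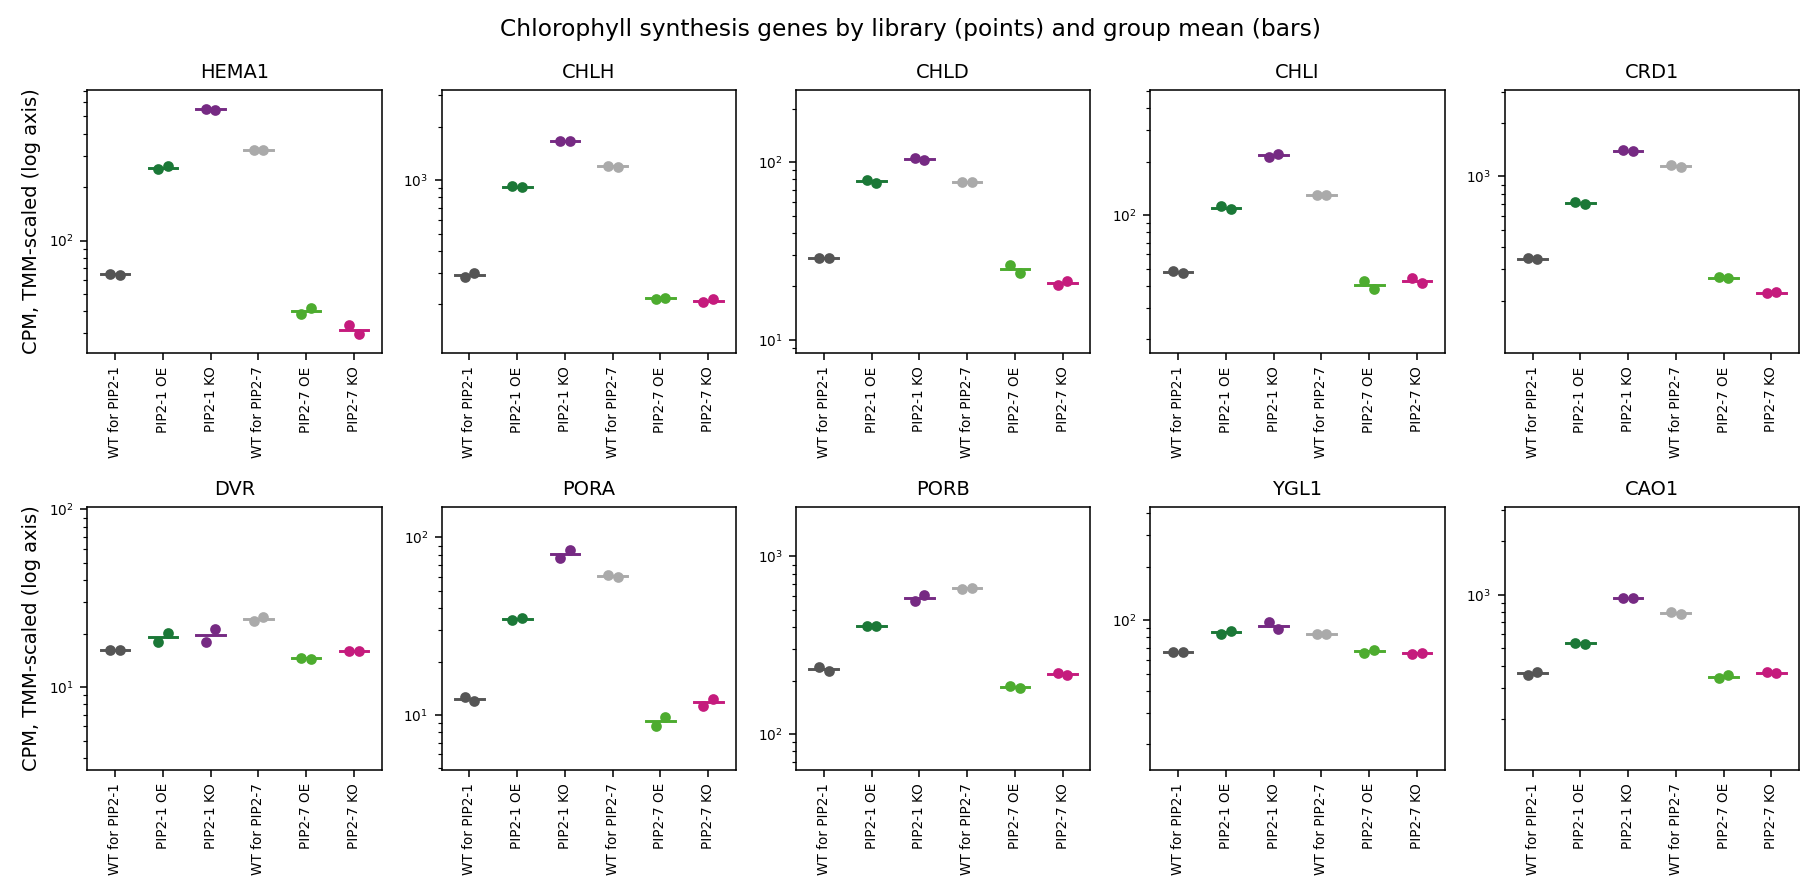
Level of each of the 10 genes in CPM, scaled by the trimmed mean of M values (log axis, spanning the same ratio in each panel), for the 6 groups on the horizontal axis; points are libraries and bars are means of 2. HEMA1, CHLH and PORA stand highest in PIP2-1 KO, while DVR and YGL1 stay in a narrow band.

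HEMA1 (Os10g0502400, chromosome 10, 19159179 to 19162398, 3 exon intervals, 2127 bases; coordinates on IRGSP-1.0) encodes glutamyl-tRNA reductase, which starts the pathway and is known as its main control point. Among the members it had the widest range. HEMA1 stood at 64.6 and 64.3 CPM in the WT libraries for PIP2-1, 253 and 262 in OE and 550.3 and 546 in KO. Likewise in the PIP2-7 experiment it stood at 323 and 322 CPM in WT, 38.4 and 41.8 in OE and 33.3 and 29.8 in KO. The groups did not overlap, with PIP2-1 KO highest and PIP2-7 KO lowest. The log2 change was 1.997 (SE 0.040, adjusted p = 1.04e-30) in PIP2-1 OE and 3.09 (SE 0.041, adjusted p = 2.10e-36) in PIP2-1 KO, or 3.99-fold and 8.50-fold higher than WT. In PIP2-7 OE and KO it was -3.03 (SE 0.041, adjusted p = 8.91e-44) and -3.36 (SE 0.042, adjusted p = 9.82e-45), or 8.16-fold and 10.3-fold lower. GSA1, whose enzyme makes 5-aminolevulinic acid in the next step, changed less, by 0.96, 1.09, -1.09 and -1.18 in the same 4 comparisons. The ratio of HEMA1 to GSA1 in RPKM, which divides the scaled count by gene length, was therefore not constant: it was 1.17 ± 0.0195 in the WT for PIP2-1, 4.65 ± 0.192 in PIP2-1 KO and 0.629 ± 0.00628 in PIP2-7 KO.

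CHLH (Os03g0323200, chromosome 3, 11712280 to 11719587, 6 exon intervals, 4227 bases), CHLD (Os03g0811100, chromosome 3, 33955293 to 33961962, 15 exon intervals, 2573 bases) and CHLI (Os03g0563300, chromosome 3, 20248326 to 20250000, 3 exon intervals, 1481 bases) encode the 3 subunits of magnesium chelatase. CHLH binds the porphyrin, and CHLI and CHLD form the ATP-driven motor. CHLH stood at 287 and 301 CPM in the WT libraries for PIP2-1, 922 and 916 in OE and 1661 and 1665 in KO. In turn, in the PIP2-7 experiment it stood at 1202 and 1191 CPM in WT, 213 and 218 in OE and 205 and 214 in KO. Its groups separated except for the PIP2-7 OE and KO, whose libraries overlapped. The log2 change of CHLH was 1.64 (SE 0.036, adjusted p = 1.59e-29) in PIP2-1 OE, 2.50 (SE 0.037, adjusted p = 5.48e-35) in PIP2-1 KO, -2.49 (SE 0.029, adjusted p = 1.56e-46) in PIP2-7 OE and -2.52 (SE 0.029, adjusted p = 1.84e-46) in PIP2-7 KO.

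The CHLH count has a limit of its own. Another locus named chlH in the authors' tables (Os07g0656500, chromosome 7, 27623979 to 27626667) had 66.9% to 76.0% as many counts as CHLH in each library. Reads with several alignments were counted at every place, per the file headers. In the authors' deposited tables from Cuffdiff this other locus stood at 0.0753 to 0.200 FPKM over the WT and OE groups. In the WT for PIP2-1 the authors' deposited table gives CHLH itself 34.5 FPKM, which is 0.496 times its mean RPKM from the counts, while the same ratio was 1.23 to 2.01 for the other 9 members. The absolute level of CHLH is thus uncertain, and its reads cannot be divided between the loci from these counts.

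Both partner subunits moved with CHLH but over a smaller range. CHLD stood at 28.9 and 28.9 CPM in the WT libraries for PIP2-1, 79.9 and 76.7 in OE and 106 and 103 in KO. By comparison, in the PIP2-7 experiment it stood at 77.6 and 77.5 CPM in WT, 26.2 and 23.9 in OE and 20.3 and 21.3 in KO. PIP2-1 OE and the WT for PIP2-7 overlapped in CHLD, and the other groups did not. CHLI stood at 48.4 and 47.2 CPM in the WT libraries for PIP2-1, 112 and 108 in OE and 213 and 221 in KO. Correspondingly, in the PIP2-7 experiment it stood at 129.97 and 129 CPM in WT, 42.5 and 38.3 in OE and 43.95 and 41.5 in KO. PIP2-7 OE and KO overlapped in CHLI. The log2 changes of CHLD were 1.44 (SE 0.051), 1.85 (SE 0.051), -1.65 (SE 0.053) and -1.91 (SE 0.055) in PIP2-1 OE, PIP2-1 KO, PIP2-7 OE and PIP2-7 KO. Those of CHLI were 1.20 (SE 0.045), 2.18 (SE 0.044), -1.70 (SE 0.044) and -1.60 (SE 0.044). In RPKM the ratio of CHLH to CHLI was 2.15 ± 0.114 in the WT for PIP2-1, 2.92 ± 0.0511 in its OE and 2.69 ± 0.0586 in its KO. In the PIP2-7 experiment the ratio was 3.24 ± 0.00339 in WT, 1.88 ± 0.165 in OE and 1.72 ± 0.121 in KO. These ratios carry the reservation on CHLH counts above. The authors' deposited tables give CHLH and CHLI 34.5 and 39.7 FPKM in the WT for PIP2-1. For the WT for PIP2-7 the authors' deposited tables give 113 and 96.6 FPKM. The subunit transcripts were therefore not in 1 fixed proportion across groups, while the size of any excess of CHLH is uncertain. GUN4, which encodes a protein that binds porphyrin and stimulates magnesium chelatase, had log2 changes of 2.16, 3.39, -3.01 and -2.30.

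CRD1 (Os01g0279100, chromosome 1, 9874379 to 9876678, 5 exon intervals, 1685 bases) encodes the membrane-bound subunit of the oxidative cyclase that closes the fifth ring of the magnesium porphyrin. Per length it was the most abundant member in the PIP2-1 experiment, at 204 ± 2.77 RPKM in WT and 828 ± 8.14 RPKM in KO, while in PIP2-7 KO it stood at 132 ± 0.766 RPKM beside 137 ± 0.368 for CAO1. CRD1 stood at 347 and 341 CPM in the WT libraries for PIP2-1, 715 and 695 in OE and 1404 and 1385 in KO. Likewise in the PIP2-7 experiment it stood at 1157 and 1137 CPM in WT, 272 and 267 in OE and 221 and 223 in KO. The 6 groups did not overlap, and PIP2-1 KO stood highest and PIP2-7 KO lowest. Its log2 change was 1.03 (SE 0.035, adjusted p = 8.24e-24) in PIP2-1 OE, 2.02 (SE 0.036, adjusted p = 1.12e-32) in PIP2-1 KO, -2.11 (SE 0.028, adjusted p = 2.29e-44) in PIP2-7 OE and -2.38 (SE 0.028, adjusted p = 6.71e-46) in PIP2-7 KO.

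DVR (Os03g0351200, chromosome 3, 13155851 to 13157256, 2 exon intervals, 1344 bases) encodes divinyl reductase, which reduces a vinyl side chain of the chlorophyll precursors. It hardly followed its neighbour in the pathway. DVR stood at 16.1 and 16.3 CPM in the WT libraries for PIP2-1, 18.04 and 20.2 in OE and 18.003 and 21.3 in KO. In turn, in the PIP2-7 experiment it stood at 23.6 and 24.9 CPM in WT, 14.7 and 14.3 in OE and 15.9 and 15.9 in KO. The OE and KO libraries of PIP2-1 overlapped each other and were above WT, and the WT for PIP2-7 was above every other library. The log2 changes were 0.24 (SE 0.087, adjusted p = 0.0229) in PIP2-1 OE and 0.27 (SE 0.090, adjusted p = 0.00865) in PIP2-1 KO. Neither call was stable: the first was lost with DESeq2 and without either WT library or the second OE library, and the other without the second KO library, where the change was 0.16. In PIP2-7 OE and KO the changes were -0.76 (SE 0.074, adjusted p = 2.29e-12) and -0.61 (SE 0.074, adjusted p = 8.58e-10).

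PORA (Os04g0678700, chromosome 4, 34663055 to 34664559, 2 exon intervals, 1384 bases) and PORB (Os10g0496900, chromosome 10, 18900290 to 18904022, 3 exon intervals, 2963 bases) encode protochlorophyllide oxidoreductases, the enzymes that need light to make chlorophyllide. PORA is known from etiolated seedlings and PORB from green leaves. PORA stood at 12.6 and 11.9 CPM in the WT libraries for PIP2-1, 34.4 and 35.3 in OE and 76.5 and 85.1 in KO. By comparison, in the PIP2-7 experiment it stood at 61.7 and 59.8 CPM in WT, 8.65 and 9.79 in OE and 11.2 and 12.3 in KO. PIP2-1 KO was highest, and the PIP2-7 OE, PIP2-7 KO and WT for PIP2-1 libraries were the low ones, of which the last and PIP2-7 KO overlapped. PORB stood at 238 and 227 CPM in the WT libraries for PIP2-1, 407 and 406 in OE and 564 and 610.03 in KO. Correspondingly, in the PIP2-7 experiment it stood at 658 and 667 CPM in WT, 186 and 181 in OE and 220.00 and 215 in KO. PORB was highest in the WT for PIP2-7 and not in PIP2-1 KO, unlike HEMA1, the chelatase genes, CRD1, PORA, YGL1 and CAO1. The log2 change of PORA was 1.51 (SE 0.073, adjusted p = 3.38e-19) in PIP2-1 OE, 2.72 (SE 0.070, adjusted p = 6.29e-28) in PIP2-1 KO, -2.74 (SE 0.069, adjusted p = 2.79e-33) in PIP2-7 OE and -2.37 (SE 0.067, adjusted p = 1.98e-31) in PIP2-7 KO. PORB changed by 0.80 (SE 0.039), 1.33 (SE 0.039), -1.88 (SE 0.029) and -1.61 (SE 0.029).

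Because PORA moved over a wider range than PORB, their proportion differed between groups. Per length PORB exceeded PORA 8.85 ± 0.0613 times in the WT for PIP2-1, 5.45 ± 0.112 times in PIP2-1 OE and 3.40 ± 0.0658 times in PIP2-1 KO. In the PIP2-7 experiment the RPKM ratio was 5.09 ± 0.162 in WT, 9.32 ± 0.989 in OE and 8.65 ± 0.743 in KO. PORB was the more abundant transcript in each group, with the smallest excess where PORA was highest.

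YGL1 (Os05g0349700, chromosome 5, 16512069 to 16517848, 15 exon intervals, 1742 bases) encodes chlorophyll synthase, which joins the phytol tail. It had the narrowest range of the 10. YGL1 stood at 65.8 and 66.1 CPM in the WT libraries for PIP2-1, 83.8 and 87.1 in OE and 97.2 and 88.95 in KO. Likewise in the PIP2-7 experiment it stood at 84.1 and 83.3 CPM in WT, 65.7 and 68.003 in OE and 64.8 and 65.6 in KO. The WT for PIP2-1 overlapped PIP2-7 OE, and PIP2-1 OE overlapped the WT for PIP2-7, with PIP2-1 KO above all others. The log2 changes were 0.37 (SE 0.048, adjusted p = 4.16e-08), 0.50 (SE 0.048, adjusted p = 3.70e-11), -0.35 (SE 0.040, adjusted p = 3.66e-10) and -0.37 (SE 0.041, adjusted p = 1.01e-10) in PIP2-1 OE, PIP2-1 KO, PIP2-7 OE and PIP2-7 KO. LYL1, which encodes the geranylgeranyl reductase that supplies phytol for the same reaction, changed by 1.12, 1.25, -2.14 and -2.16.

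CAO1 (Os10g0567400, chromosome 10, 22482882 to 22486431, 9 exon intervals, 2672 bases) encodes chlorophyllide a oxygenase, which makes chlorophyll b. CAO1 stood at 356 and 367 CPM in the WT libraries for PIP2-1, 537 and 528 in OE and 964 and 960.1 in KO. In turn, in the PIP2-7 experiment it stood at 805 and 779 CPM in WT, 338 and 352 in OE and 366 and 364 in KO. PIP2-1 KO was highest and PIP2-7 OE lowest, and the WT for PIP2-1 overlapped PIP2-7 KO. Its log2 changes were 0.56 (SE 0.035), 1.41 (SE 0.035), -1.22 (SE 0.028) and -1.12 (SE 0.028) in the 4 comparisons with WT. Its close relative CAO2 (Os10g0567100, chromosome 10, 22473573 to 22477206) lies next to it on the same strand and stood at 0.551 to 1.70 CPM as group means, and reads shared by the copies would be counted at both. The RPKM ratio of CAO1 to YGL1, which act at the end of the pathway, was 3.57 ± 0.0705 in the WT for PIP2-1, 6.75 ± 0.402 in PIP2-1 KO, 6.17 ± 0.101 in the WT for PIP2-7 and 3.36 ± 0.00899 in PIP2-7 OE.

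The wild types themselves differed in these genes. In the WT for PIP2-7, 10 of 10 members were higher than in the WT for PIP2-1 by the edgeR test, where 28.1% of 24556 genes were higher. The log2 difference was 2.32 (SE 0.040) for HEMA1, 2.31 (SE 0.070) for PORA, 2.02 (SE 0.031) for CHLH and 1.74 (SE 0.030) for CRD1. It was 1.51 (SE 0.034) for PORB, 1.44 (SE 0.045) for CHLI, 1.42 (SE 0.052) for CHLD and 1.13 (SE 0.031) for CAO1. DVR and YGL1 differed by 0.58 (SE 0.081) and 0.34 (SE 0.045). The median was 1.47, against -0.0097 over all genes tested. Variety, tissue and age are the same for both pairs per the labels, and the HEMA1 difference between the wild types was larger than the change in PIP2-1 OE, 1.997.

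Each line was therefore also set against the WT pair of the other experiment, in a fit of all 12 libraries. PIP2-1 KO was higher than both WT pairs in 8 of 10 members (HEMA1, CHLH, CHLD, CHLI, CRD1, PORA, YGL1 and CAO1), where 14.3% of genes tested were higher than both. Against the other WT pair HEMA1 stood at 0.77 (SE 0.035, adjusted p = 7.99e-26), CHLI at 0.74 (SE 0.040, adjusted p = 5.86e-23) and CHLH at 0.47 (SE 0.030, adjusted p = 4.61e-20). DVR and PORB turned, to -0.31 and -0.18, and so lay between the WT pairs, as did 7.44% of genes. PIP2-1 OE was higher than both pairs in 0 of 10 members and lower than both in 0, where 9.27% and 6.95% of genes were. Instead 8 members lay between the WT pairs, called higher than the lower pair and lower than the other, as did 12.2% of genes. HEMA1 was then at -0.32 (SE 0.035, adjusted p = 1.86e-11), PORA at -0.80 (SE 0.059, adjusted p = 1.79e-17) and CRD1 at -0.70 (SE 0.029, adjusted p = 6.30e-28), while CHLD (0.014) and YGL1 (0.030) were not called.

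PIP2-7 OE was lower than both WT pairs in 7 of 10 members (HEMA1, CHLH, CHLD, CHLI, CRD1, PORA and PORB), against 16.7% of genes tested. The log2 differences from the other pair were smaller than those from its own. HEMA1 stood at -0.68 (SE 0.045, adjusted p = 3.65e-19), CHLH at -0.45 (SE 0.032, adjusted p = 4.55e-18) and PORA at -0.41 (SE 0.089, adjusted p = 1.08e-04), and DVR (-0.16), YGL1 (0.019) and CAO1 (-0.068) were not called. PIP2-7 KO was lower than both pairs in 6 of 10 members (HEMA1, CHLH, CHLD, CHLI, CRD1 and PORB), against 14.6% of genes. HEMA1 was at -1.03 (SE 0.047, adjusted p = 6.58e-26) and CRD1 at -0.63 (SE 0.031, adjusted p = 1.10e-24), while PORA (-0.057), DVR (-0.024), YGL1 (-0.018) and CAO1 (0.014) were not called. Of all genes tested, 25.2% were higher than the other WT pair alone and 24.1% lower in PIP2-1 OE, 23.0% and 23.2% in PIP2-1 KO, 27.1% and 26.0% in PIP2-7 OE, and 24.4% and 23.8% in PIP2-7 KO. The leaf markers followed in part: against the other WT pair 4 of 4 were higher in PIP2-1 KO, and 1 was higher and 2 were lower in PIP2-1 OE. In PIP2-7 OE 2 were higher and 2 lower, and in PIP2-7 KO 1 was higher and 2 lower.

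**Figure D2:**
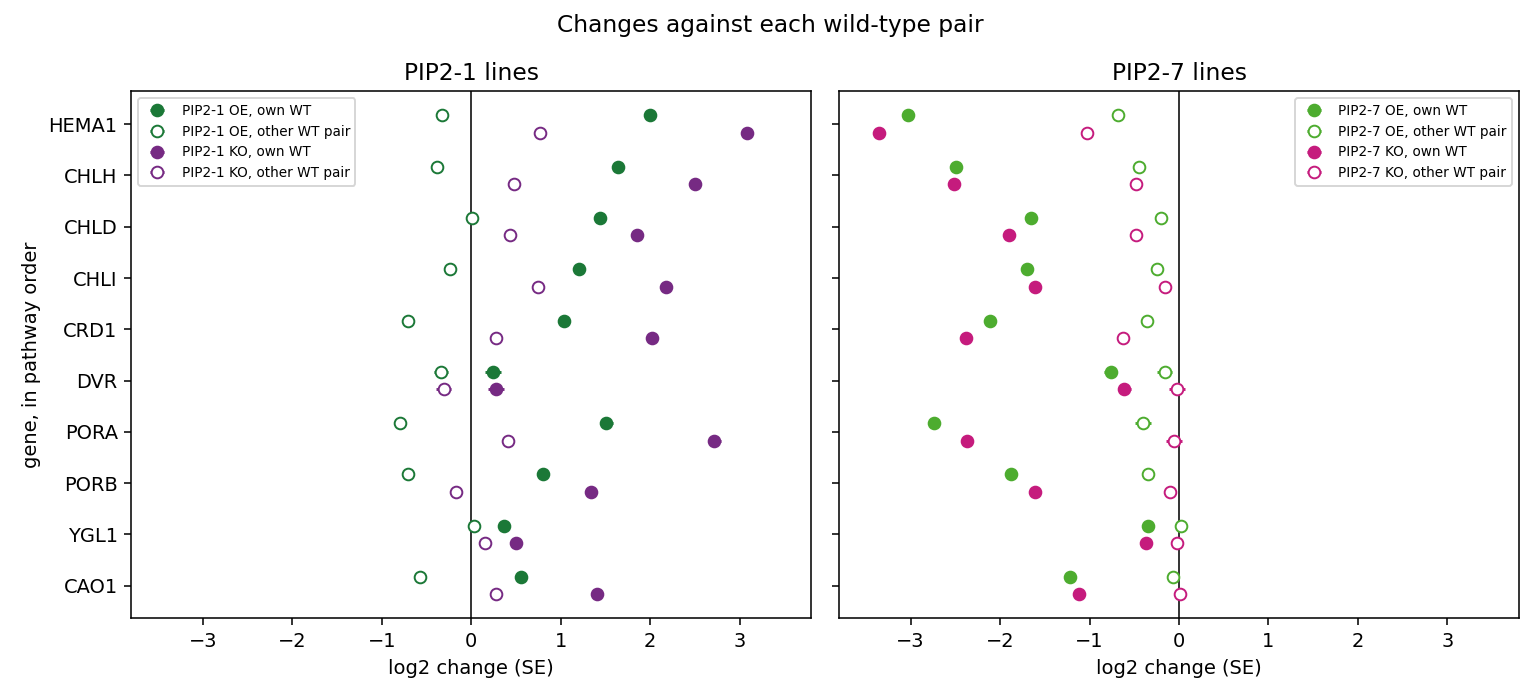
Log2 change of each gene (horizontal axis, with SE bars that are often smaller than the symbols) in OE and KO of each experiment, genes from top to bottom in pathway order; filled symbols are against the line's own WT pair and open symbols against the other WT pair. Filled symbols lie right of 0 for PIP2-1 and left of 0 for PIP2-7, while most open symbols for PIP2-1 OE fall left of 0 and PIP2-1 KO keeps HEMA1 at 0.77.

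The overexpression and knockout lines of a gene were compared directly, a difference that does not include the WT level. The WT libraries still entered the filter, the scaling and the estimate of spread. PIP2-1 OE was lower than PIP2-1 KO in 9 of 10 members and higher in 0, where 26.8% of genes were lower and 28.7% higher. PORA, HEMA1, CRD1 and CHLI had the widest gaps, at -1.21 (SE 0.059), -1.09 (SE 0.036), -0.98 (SE 0.035) and -0.98 (SE 0.040) on the log2 scale. CHLH, CAO1, PORB and CHLD differed by -0.86, -0.85, -0.53 and -0.42. The YGL1 difference of -0.13 (SE 0.047, adjusted p = 0.0218) was lost with DESeq2, without the filter on low counts and without the first library of either line, and DVR (-0.032 (SE 0.086, adjusted p = 0.774)) was not called. In the PIP2-7 experiment the lines differed little: 3 members were higher in OE than in KO (HEMA1 0.33, CRD1 0.26, CHLD 0.25) and 3 lower (PORA -0.36, PORB -0.26, CAO1 -0.097). Of all genes 28.4% were higher and 29.6% lower in that comparison. CHLH, CHLI, DVR and YGL1 stood at 0.023 (SE 0.029), -0.098 (SE 0.050), -0.15 (SE 0.078) and 0.021 (SE 0.041) and were not called. CAO1 lost its call without the first OE library.

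The changes against WT differed between the experiments. For the OE lines, the log2 change in PIP2-7 was below that in PIP2-1 in 10 of 10 members by the interaction test over all 12 libraries, as it was in 30.9% of genes. For the KO lines it was below in 10 of 10, as in 32.8% of genes. The members were already called higher in both PIP2-1 lines and lower in both PIP2-7 lines. The sign of these differences therefore follows from those calls and is no separate result. HEMA1 gave -5.01 (SE 0.058) for OE and -6.44 (SE 0.059) for KO, and YGL1 -0.70 (SE 0.062) and -0.86 (SE 0.063). Both differences subtract the gap between the WT pairs given above, which was 2.32 for HEMA1 and 0.34 for YGL1.

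The members varied over groups to very different degrees. The ratio of the highest to the lowest group mean was 17.4 for HEMA1, 8.76 for PORA, 7.92 for CHLH, 6.28 for CRD1, 5.37 for CHLI and 5.03 for CHLD. It was 3.61 for PORB, 2.79 for CAO1, 1.67 for DVR and 1.43 for YGL1. Over the 12108 genes with a mean of at least 10 CPM the median ratio was 1.62 and the 90th percentile 3.69. HEMA1 thus exceeded 98.2% of those genes, DVR 54.1% and YGL1 31.9%. Among the other 12 genes of the path the ratio ran from 1.54, for the uroporphyrinogen decarboxylase gene UROD1, to 10.6 for GUN4, and apart from GUN4 they all lay below CHLD. UROD2, the relative of UROD1, had 4.46. FC1 and FC2, the ferrochelatase genes of the haem branch, had 1.71 and 1.31.

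**Figure D3:**
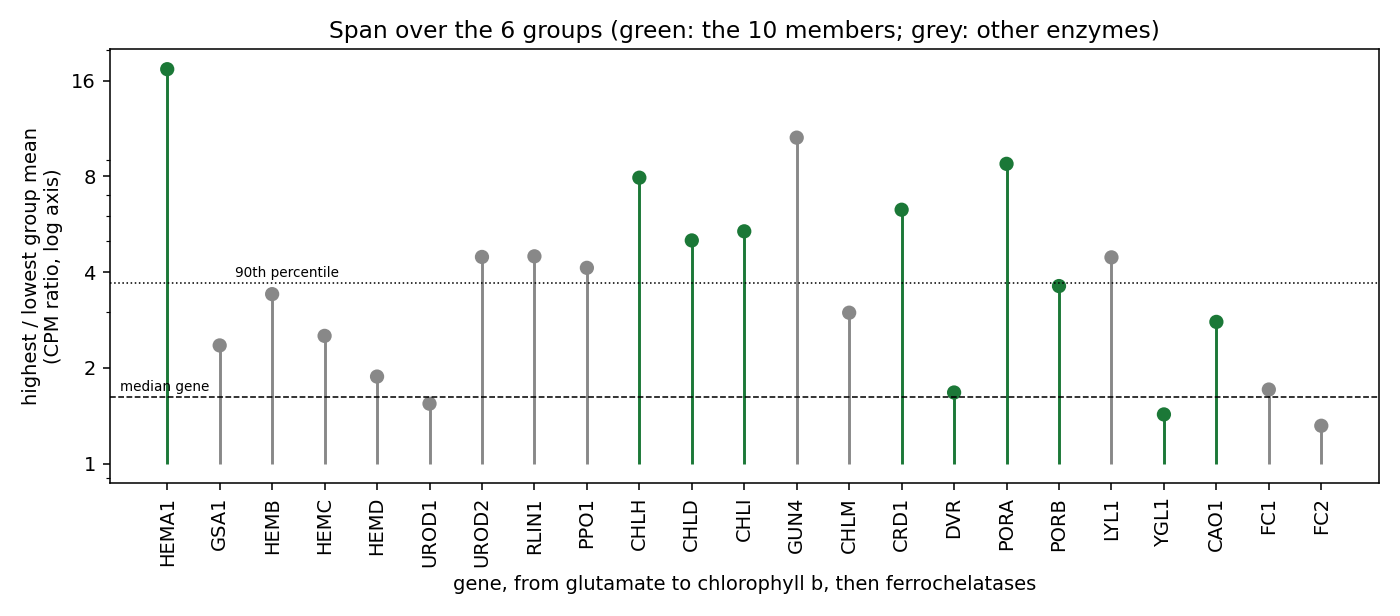
Ratio of the highest to the lowest group mean (CPM, log axis) for enzymes in pathway order, with the 10 members in green and other enzymes in grey; the dashed and dotted lines are the median and 90th percentile over 12108 genes. HEMA1 (17.4) and GUN4 (10.6) are the highest points and FC2 (1.31) the lowest; CAO2, at under 2 CPM, is not drawn.

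For 8 members PIP2-1 KO was the highest group, and for PORB and DVR it was the WT for PIP2-7. In HEMA1, CHLH, CHLI, CRD1 and PORA the order from the top was PIP2-1 KO, WT for PIP2-7, PIP2-1 OE and then the WT for PIP2-1, and each neighbour in that order differed by the tests given above. CAO1 had the same top 3 groups, followed by PIP2-7 KO (365 CPM) and the WT for PIP2-1 (362 CPM). Below or beside the WT for PIP2-1 came the PIP2-7 lines. PIP2-7 KO was lowest in HEMA1, CHLH, CHLD, CRD1 and YGL1, and PIP2-7 OE in CHLI, DVR, PORA, PORB and CAO1, but in CHLH, CHLI, DVR and YGL1 these lines were not called different. Other pairs not called different were PIP2-1 OE and PIP2-1 KO in DVR, and PIP2-1 OE and the WT for PIP2-7 in CHLD and YGL1. The WT for PIP2-1 was not called different from PIP2-7 KO in DVR, PORA, YGL1 and CAO1. Nor was that WT called different from PIP2-7 OE in DVR, YGL1 and CAO1. Pairs of a PIP2-1 line and a PIP2-7 line were not tested. Within a group the libraries were close, with a coefficient of variation of at most 11.9% (DVR) for any member.

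The other 12 genes of the path, from GSA1 to LYL1, moved with the members. Of these 10 were higher and 0 lower in PIP2-1 OE, and 12 higher in PIP2-1 KO, with medians of 0.95 and 1.38. In PIP2-7 OE and KO 11 were lower and 0 higher, with medians of -1.26 and -1.21. Of all genes 23.2% and 30.5% were higher in PIP2-1 OE and KO, and 33.7% and 31.3% lower in PIP2-7 OE and KO. UROD1 was the exception in both PIP2-7 lines (0.048 and -0.056, not called). UROD2 (1.58 and 2.11 in the PIP2-1 lines), RLIN1, a coproporphyrinogen oxidase gene (1.12 and 1.64), and PPO1, a protoporphyrinogen oxidase gene (0.64 and 1.51), rose. CHLM, the methyltransferase gene after magnesium chelatase, changed by 1.03, 1.52, -1.26 and -1.16, on a gene model of 469 bases. Against the other WT pair 0 of the 12 were higher and 6 lower in PIP2-1 OE, 8 higher and 1 lower in PIP2-1 KO, 1 higher and 2 lower in PIP2-7 OE, and 3 higher and 4 lower in PIP2-7 KO. Beside the shares of all genes given above for that reference, the counts in PIP2-7 OE are below and those in PIP2-7 KO near or somewhat above.

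At the branch point the haem side was measured through the ferrochelatase genes. FC2 stood at 397 ± 14.6 CPM in the WT for PIP2-1 and 395 ± 13.2 in PIP2-1 KO, a log2 change of -0.012 (SE 0.037, adjusted p = 0.806) that was not called. FC1 was lower in PIP2-1 KO (-0.65) and higher in PIP2-7 OE and KO (0.68 and 0.77), opposite to the members. These 3 calls were lost against the other WT pair (FC1 at 0.0071, 0.046 and 0.12), and FC1 was higher in PIP2-1 OE (0.54). Against its own WT FC2 was lower in PIP2-1 OE (-0.17), higher in PIP2-7 OE (0.21) and not called in PIP2-7 KO (-0.056). Against the other WT pair FC2 was again lower in PIP2-1 OE (-0.17), higher in PIP2-7 OE (0.22) and not called in the KO lines. The RPKM ratio of CHLH to FC2 was 0.397 ± 0.000749 in the WT for PIP2-1, 2.26 ± 0.0798 in PIP2-1 KO, 1.62 ± 0.0105 in the WT for PIP2-7 and 0.249 ± 0.000902 in PIP2-7 OE, with the reservation on CHLH counts above. Genes that convert chlorophyll b back to a showed no common direction. NYC1, a chlorophyll b reductase gene, fell in PIP2-1 OE and KO (-0.65 and -0.54) and rose in PIP2-7 OE and KO (1.001 and 0.37). With the other WT pair as reference NYC1 was lower in the PIP2-1 lines (-0.26 and -0.16), higher in PIP2-7 OE (0.64) and not called in PIP2-7 KO (-0.0058). HCAR, the gene of the reductase that completes this conversion, changed by 0.15, -0.14, -0.23 and -0.43. NOL, another chlorophyll b reductase gene, changed by -0.0015, 0.61, 0.45 and -0.060 against its own WT, the first and last not called. With the other WT pair NOL was at -0.23, 0.38, 0.71 and 0.18.

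Genes of chlorophyll breakdown ran opposite to the members: 4 of 4 were lower in both PIP2-1 lines, where 20.9% and 31.9% of genes were lower in OE and KO, and 4 of 4 higher in both PIP2-7 lines, where 33.4% and 32.1% were higher. SGR, the stay-green gene that removes magnesium from chlorophyll, stood at 102 and 103 CPM in the WT for PIP2-1, 20.7 and 20.7 in OE and 4.14 and 5.73 in KO. In the PIP2-7 experiment SGR stood at 4.09 and 4.41 CPM in WT, 161 and 158 in OE and 107 and 109 in KO. The libraries low in SGR were those high in HEMA1, namely PIP2-1 OE, PIP2-1 KO and the WT for PIP2-7. NYC3, RCCR1 and PAO, which act after it, changed by -1.70, -2.17 and -0.77 in PIP2-1 KO and by 1.93, 2.64 and 1.06 in PIP2-7 KO. Against the other WT pair the breakdown genes gave other counts, with 3 of 4 higher and 0 lower in PIP2-1 OE, 2 higher and 1 lower in PIP2-1 KO, and 2 higher and 0 lower in each PIP2-7 line. Of all genes 25.2% were higher than that pair in PIP2-1 OE, 27.1% in PIP2-7 OE and 24.4% in PIP2-7 KO. In PIP2-1 KO 23.0% were higher and 23.2% lower. The RPKM ratio of HEMA1 to SGR was 0.408 ± 0.00539 in the WT for PIP2-1, 73.8 ± 17.2 in PIP2-1 KO and 0.162 ± 0.0120 in PIP2-7 OE.

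GLK1 encodes a transcription factor known to promote chloroplast development. It stood at 50.2 and 47.4 CPM in the WT for PIP2-1, 69.7 and 68.1 in OE and 144 and 155 in KO. In the WT, OE and KO for PIP2-7 it stood at 248 and 246, 29.8 and 26.7 and 26.8 and 25.9 CPM. GLK1 was thus highest in the WT for PIP2-7, as PORB was, with log2 changes of 0.50, 1.61, -3.15 and -3.23. Of 8 antenna protein genes, whose products bind chlorophyll, 7 were higher in PIP2-1 OE, 8 higher in PIP2-1 KO and 8 lower in each PIP2-7 line. Among all genes 23.2% and 30.5% were higher in PIP2-1 OE and KO, and 33.7% and 31.3% lower in PIP2-7 OE and KO. The medians of the antenna genes were 0.68, 1.68, -2.09 and -1.23. Against the other WT pair GLK1 was lower in each of the 4 lines (-1.84, -0.73, -0.79 and -0.89). Of the antenna genes 8 were then lower in PIP2-1 OE, 7 higher in PIP2-1 KO, 8 lower in PIP2-7 OE, and 4 higher and 4 lower in PIP2-7 KO. Of all genes 24.1% were lower in PIP2-1 OE, 23.0% higher in PIP2-1 KO and 26.0% lower in PIP2-7 OE. In PIP2-7 KO 24.4% were higher and 23.8% lower. LHCB6, the gene of antenna protein CP24, changed by 1.44, 2.51, -3.08 and -2.46.

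**Figure D4:**
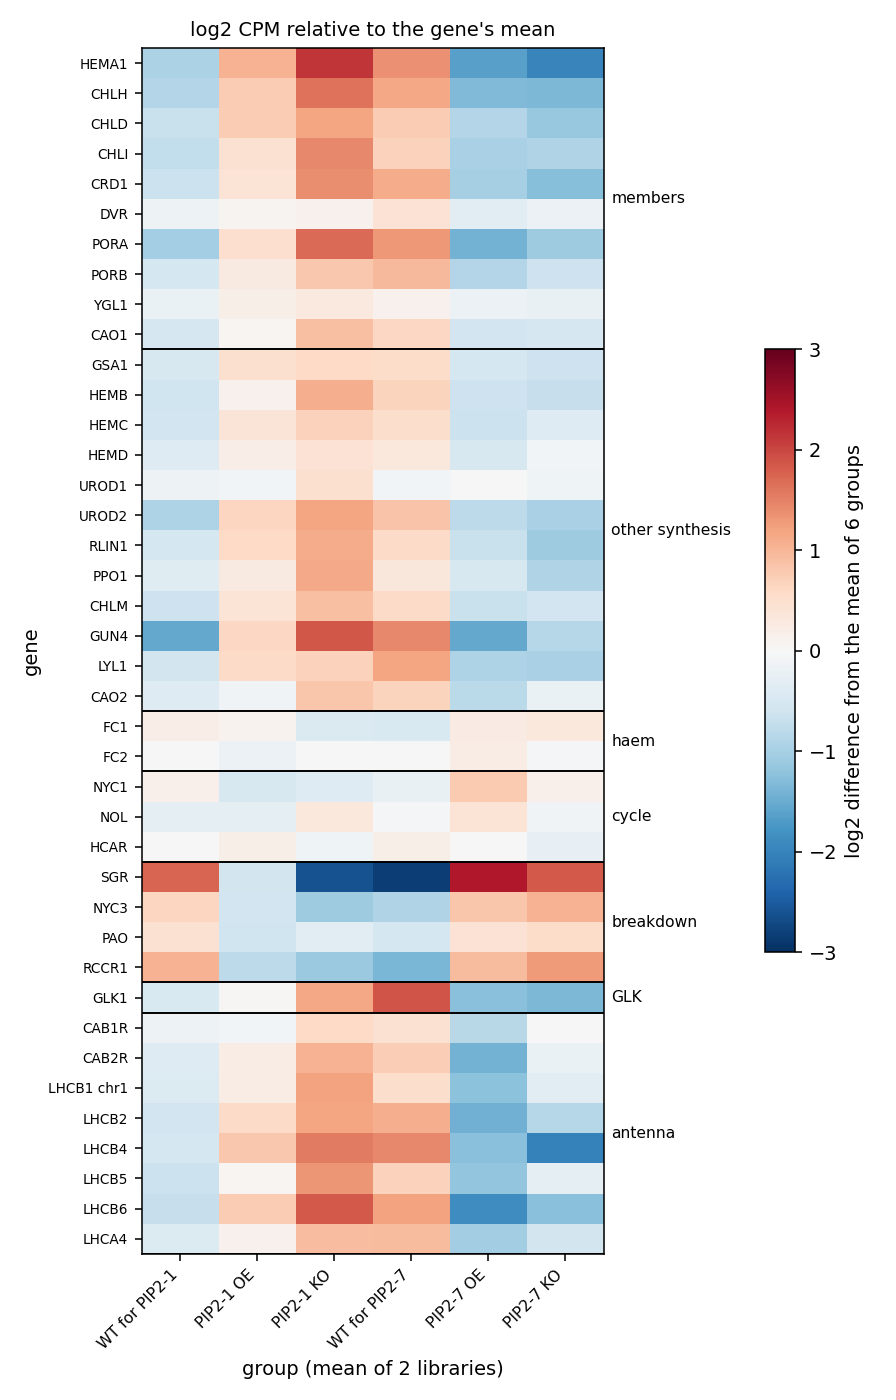
Group means of log2 CPM for each gene, relative to the gene's own mean over the 6 groups (colour, red above and blue below), with gene lists marked at the right. The members and most other synthesis and antenna genes are blue in the WT for PIP2-1 and both PIP2-7 lines and red in the other 3 groups, and the breakdown genes SGR, NYC3, PAO and RCCR1 are the reverse.

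Patterns most like a member were sought among 4168 named genes with a mean of at least 10 CPM. The members, all other listed genes and both aquaporin genes were left out of this search. Likeness was the root mean square difference of centred log2 CPM over the 12 libraries. Between members this difference was 0.197 for CHLH and PORA and 0.386 for HEMA1 and CHLH. Nearest to HEMA1 were BETACA1, a carbonic anhydrase gene, at 0.172, CIPK15, a protein kinase gene, at 0.371, and the chlH locus on chromosome 7 at 0.387. Nearest to CHLH was that same chlH locus at 0.0475, whose counts can include the same reads, then OsStr1 at 0.208 and SSIVA, a starch synthase gene, at 0.223. PORA had the chlH locus at 0.188, OsFAD2, a fatty acid desaturase gene, at 0.209 and OsStr1 at 0.215. As a neighbour of HEMA1 and PORA the chlH locus carries the same reservation on shared reads.

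The authors' deposited tables, made with Cuffdiff, give calls in the same directions against WT. By the authors' deposited tables, members significantly higher than WT numbered 8 in each PIP2-1 line, with DVR and YGL1 not significant. For PIP2-7 OE and KO the authors' deposited tables list 9 members as significantly lower, with YGL1 not significant. The share of all genes significant there was not worked out, so these counts have no background beside them. The log2 change of HEMA1 in the authors' deposited tables was 1.87 in PIP2-1 OE, 3.06 in PIP2-1 KO, -2.77 in PIP2-7 OE and -3.01 in PIP2-7 KO. For CHLH the authors' deposited tables give 1.57, 2.34, -1.85 and -2.11 in the same order. Between OE and KO the authors' deposited tables call fewer members. For PIP2-7 only CHLD is significant there, and HEMA1, CRD1, PORA, PORB and CAO1, called above, are not. For PIP2-1, CHLD, DVR and YGL1 are not significant, and YGL1 is lower in KO than in OE, opposite to the direction above.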

How the data were processed

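Leaf RNA of 12 libraries was analysed, 2 in each of 6 groups, with groups and replicate numbers taken from the sample titles. The authors deposited a table of raw counts, with genes in rows and libraries in columns. Per the file headers they were made with featureCounts 1.4.0 on IRGSP-1.0 with the Ensembl Plants annotation, release 52, on the reverse strand, with reads of several alignments counted at each place and reads over several genes left out. Genes with near copies can thus share reads. Trim Galore, HISAT2 and Cufflinks are named without versions in the submitters' processing notes. The deposited comparison tables hold FPKM values, log2 fold changes and p-values and q-values that the authors obtained from Cuffdiff, whose version is 2.2.1 in the submitters' processing notes. They were used for gene names and for values credited to them.

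The counts were filtered (filterByExpr), scaled by TMM and compared by the robust quasi-likelihood test of edgeR 4.0.16 (R 4.3.3). P-values were adjusted by Benjamini and Hochberg's method across the whole table and called under 0.05. Fits used the 6 libraries of an experiment, or all 12 for comparisons across experiments. SEs are the absolute log2 change over the square root of F and are approximate. Levels are CPM, and RPKM where genes are compared, since counts grow with length. Replicates differed by more than sampling noise, with a chi-square of 2.42 to 7.24 per degree of freedom, and each counts as its own sample. The biological coefficient of variation was 3.69% in the PIP2-1 and 2.75% in the PIP2-7 experiment. The lowest count of any member in a library was 303, for PORA.

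All 10 members were described in each comparison, and other genes came from lists of the pathway. For HEMA1, CHLH and PORA the 3 nearest patterns among named genes outside the members and lists were taken. Members and lists were chosen with earlier results of these data known, and 5 listed genes without a name in the sources used here were left out of the lists. Alternative settings were DESeq2 1.42.0, RLE scaling, all genes unfiltered, other sets of libraries in the fit, nuclear genes only, the replicate number as a block, other WT references and each library left out. The procedure was also tested on simulated counts.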

Additional observations from a re-analysis of the deposited data

Results flagged for a closer look

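A difference between the experiments in the change against WT flagged all 10 members, for the OE lines and again for the KO lines. Its sign follows from the calls against WT given above. The value is the log2 change in PIP2-7 minus that in PIP2-1, by edgeR's quasi-likelihood interaction test over 12 libraries. Between the OE lines it was -5.01 for HEMA1, -4.12 for CHLH, -3.07 for CHLD, -2.89 for CHLI and -3.13 for CRD1. It was -0.99 for DVR, -4.23 for PORA, -2.66 for PORB, -0.70 for YGL1 and -1.76 for CAO1. Between the KO lines it was -6.44 for HEMA1, -5.01 for CHLH, -3.76 for CHLD, -3.78 for CHLI and -4.39 for CRD1. The remaining KO values were -0.88 for DVR, -5.09 for PORA, -2.94 for PORB, -0.86 for YGL1 and -2.53 for CAO1. The least extreme adjusted p was 2.46e-09, for DVR between the KO lines. Of all genes tested 62.6% and 67.3% differed in the same tests, and the WT pairs, which enter both differences, differed in 56.6% of genes.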

How the results depend on the processing

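RLE scaling, nuclear genes alone, all 12 libraries in each fit and fits of the 4 libraries compared changed no call or direction of a member, and no scaling moved the median of all genes by 0.1. With DESeq2 2 calls were lost (DVR in PIP2-1 OE against WT, YGL1 in PIP2-1 OE against KO), and without the filter on low counts the latter. The choice of WT mattered most. Against the other WT pair PIP2-1 OE had 0 members higher and 8 lower (24.1% of genes were lower), PIP2-1 KO had 8 higher and 2 lower (23.0% and 23.2% of genes), PIP2-7 OE had 7 lower (26.0%) and PIP2-7 KO 6 lower (23.8%). In PIP2-1 OE the values turned to -0.32 for HEMA1, -0.38 for CHLH, -0.23 for CHLI, -0.70 for CRD1, -0.34 for DVR, -0.80 for PORA, -0.70 for PORB and -0.57 for CAO1. In PIP2-1 KO they turned to -0.31 for DVR and -0.18 for PORB, in PIP2-7 OE to 0.019 for YGL1 and in PIP2-7 KO to 0.014 for CAO1, the last pair not called. With all 4 WT libraries as one reference, whose pairs differ, 0 members were higher in PIP2-1 OE and 1 in PIP2-1 KO, and 1 was lower in PIP2-7 OE and 3 in PIP2-7 KO. That reference called 2061, 5662, 7363 and 5518 of 24556 genes in these comparisons, higher and lower together. With each line's own WT pair 10355, 14666, 15857 and 14968 genes were called. Shares by direction were not worked out for the joint reference, so its member counts have no like background. It turned CRD1, DVR, PORA, PORB and CAO1 in PIP2-1 OE to -0.080, -0.078, -0.067, -0.14 and -0.11, and DVR in PIP2-1 KO to -0.040, none of them called. Leaving out each library in turn moved DVR in PIP2-1 OE against KO over -0.15 to 0.093, YGL1 in PIP2-7 OE against KO over -0.0053 to 0.040 and CHLH over -0.013 to 0.048, values not called in any of these fits. CHLI in PIP2-7 OE against KO was called without the first OE library (-0.18) or the second KO library (-0.15). Replicate numbers are shared by the groups, but deviations of same-numbered libraries correlated between -0.024 and 0.024 across genes, so the numbers do not pair them. With the replicate number as a block all member calls stayed, and HEMA1 changed by 3.09 in PIP2-1 KO. With 2 libraries a group and at least 24636211 counts in each, small differences such as those of DVR and YGL1 are the least certain, and reads of near copies, as at CHLH, cannot be divided.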
